A study of Rattus norvegicus and Mus musculus with 17 samples.

Results

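The 10 genes described here encode the urea cycle and the enzymes and carriers that feed it: Nags, Cps1, Otc, Ass1, Asl and Arg1, the mitochondrial carriers Slc25a13 and Slc25a15, and the liver-type glutaminase Gls2 and glutamate dehydrogenase Glud1. Members were taken by symbol, without regard to case, from 3 tables of a study that set liver tumour models beside regenerating liver. The authors kept in each table genes whose deposited p-value was under 0.05, and for a member left out of a table no level can be given. In the mouse tumour table stood 7 of the 10 among 4649 genes, in the rat hepatoma table there were 9 among 9082, and in the rat regeneration table Nags alone among 2093. All 10 stood in at least 1 table, and 6 stood in both tumour tables.

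RNA was sequenced from whole tissue of male animals. All 6 mouse livers came from C57BL6 animals given 50 mg/kg diethylnitrosamine (DEN, a liver carcinogen) at 14 days of age and 2 mg/kg TCPOBOP (an activator of the receptor CAR that promotes liver tumours) 30 days later. Livers without tumours yet were harvested at 5 months of age (n = 3) and liver tissue with tumours at 8 months (n = 3), so that tumours and 3 further months of age cannot be told apart, and no liver without DEN and TCPOBOP enters. The rats were of the ACI strain. Morris hepatomas (n = 4) were harvested 2 weeks after 1000000 cells of the single line MH3924a, a transplantable rat hepatoma, were injected into the liver of 10-week-old rats. Regenerating livers (n = 4) were taken 24 hours after partial hepatectomy of rats aged 10 to 12 weeks. Age-matched untreated liver (n = 3) was the control in both rat tables, which share these libraries. Whether each library stands for 1 animal is not given in the labels, so p-values measure the spread between libraries, which may be technical.

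The urea cycle turns ammonia into urea for excretion, and among tissues it is complete mainly in hepatocytes, where periportal cells carry most of it. It starts in mitochondria, where Nags makes N-acetylglutamate, the obligatory activator of Cps1. Cps1 joins ammonia and bicarbonate to carbamoyl phosphate, Otc passes that to ornithine, and Ass1, Asl and Arg1 complete the cycle in the cytosol. Slc25a15 exchanges ornithine for citrulline across the inner membrane, Slc25a13 (citrin) exports aspartate, and Gls2 and Glud1 release ammonia from glutamine and glutamate.

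Rat promoter stretches of 4 members are printed: those of Nags and Cps1, which hold the entry to the cycle, and those of Otc and Gls2, which among the members called lower in hepatoma had the largest change and the smallest adjusted p. Each runs over the 250 bases before the RefSeq transcription start in build GRCr8, 5′ to 3′ on the gene's strand. Capitals mark matches, on either strand, to 1 of 7 motifs: TATAAA (core promoter box), CCAAT (NF-Y box), TTGCNNAA (C/EBP), AGGTCA (1 repeat of nuclear receptor sites), TGTTCT (1 repeat of the glucocorticoid receptor site), TGACGTCA (full CREB site) and TGACG (the short CREB site, which every full site also holds).
Nags (chr10:87598266-87598515, + strand): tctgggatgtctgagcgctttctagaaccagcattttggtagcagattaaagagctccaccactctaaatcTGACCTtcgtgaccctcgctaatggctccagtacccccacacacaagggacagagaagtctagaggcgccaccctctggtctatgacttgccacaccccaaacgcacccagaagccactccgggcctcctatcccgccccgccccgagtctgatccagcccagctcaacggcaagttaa
Cps1 (chr9:76063613-76063862, + strand): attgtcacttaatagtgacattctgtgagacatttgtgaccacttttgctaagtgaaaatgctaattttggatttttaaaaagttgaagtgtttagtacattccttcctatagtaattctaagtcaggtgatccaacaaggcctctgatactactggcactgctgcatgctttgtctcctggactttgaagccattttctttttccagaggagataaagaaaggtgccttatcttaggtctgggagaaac
Otc (chrX:15202474-15202723, - strand): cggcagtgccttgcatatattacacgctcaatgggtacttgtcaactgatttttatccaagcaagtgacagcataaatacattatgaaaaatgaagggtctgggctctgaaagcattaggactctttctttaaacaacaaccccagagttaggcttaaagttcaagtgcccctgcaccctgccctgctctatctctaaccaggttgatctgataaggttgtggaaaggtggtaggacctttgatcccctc
Gls2, start 1 (chr7:1201629-1201878, + strand): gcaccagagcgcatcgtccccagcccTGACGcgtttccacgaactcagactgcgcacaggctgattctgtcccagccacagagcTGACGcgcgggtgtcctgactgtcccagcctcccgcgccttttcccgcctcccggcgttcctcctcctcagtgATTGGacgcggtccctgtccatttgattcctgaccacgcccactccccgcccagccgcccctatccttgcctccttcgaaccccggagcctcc
Nags held AGGTCA at -179 from the start, and Gls2 held TGACG at -224 and -166 and CCAAT at -93. Cps1 and Otc held none of the 7 in this window. The RefSeq table had entries for 9 of the 10 members, in 10 windows because Gls2 has a second start. Over these 10 windows AGGTCA stood in 1, against 14.1% of all 33360 windows of the same length, TGACG in 2 against 18.2%, CCAAT in 3 against 34.0%, and TATAAA in 1 (Ass1, at -60) against 12.9%. The other motifs stood in none of the 10, and in 9.20% (TTGCNNAA), 17.5% (TGTTCT) and 1.59% (TGACGTCA) of all windows. Matches describe letters only, and no binding was measured.

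In Morris hepatoma every listed member lay below control liver in all 4 libraries, without overlap between the groups, on the deposited RPKM scale (reads scaled to transcript length and library size). Gls2, Glud1, Otc and Nags passed the test (limma on log2(RPKM + 1), adjusted p under 0.05). Cps1, Ass1, Asl, Arg1 and Slc25a15 did not, and Slc25a13 was not listed. Of the 8233 genes tested 8.73% were called lower and 85.5% higher (3.11% and 30.4% of all annotated protein-coding genes), and of all 9082 listed genes 11.4% had hepatoma values all below the controls and 86.9% all above. The median log2 fold change was -2.49 over the 9 members and 1.58 over all genes tested. With library medians set equal, that median of all genes moved to -0.08. The calls moved to 2029 higher and 2389 lower over all genes, and to 7 lower among members. Library medians were taken over the tested genes, most of them higher in hepatoma. Setting them equal thus takes out the shared shift by construction, and cannot show whether that shift was real.

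Control library 3 stood apart from the other controls, as the highest of the 3 for Cps1, Asl, Arg1 and Slc25a15 and the lowest for Nags, Otc, Ass1, Gls2 and Glud1. Without it Otc, Gls2 and Glud1 kept their calls and Nags lost its call. Hepatomas 1 and 2 lay below hepatomas 3 and 4 for all 9 members.

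**Figure D1:**
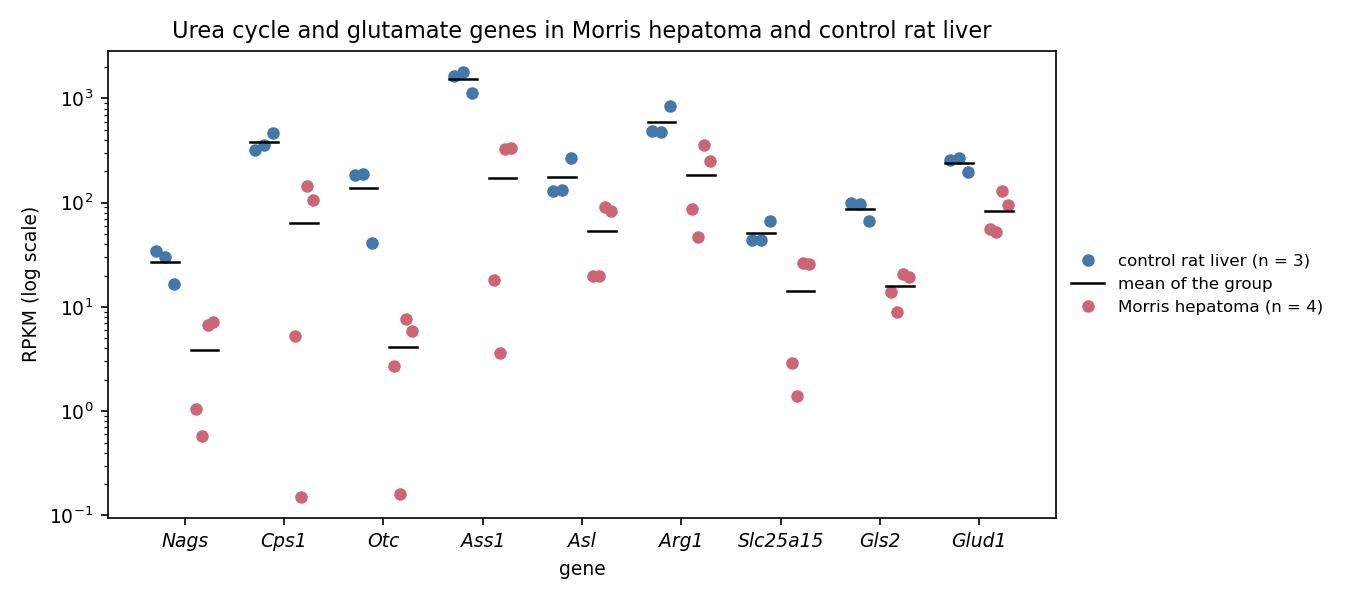
RPKM (log axis) of the 9 listed urea cycle and glutamate genes in control rat liver (blue, n = 3) and Morris hepatoma (red, n = 4), 1 point per library and black bars for group means. All hepatoma points lie below the control points of the same gene, and 2 of the 4 hepatoma libraries lie far below the other 2 for Cps1, Ass1 and Slc25a15.

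Of the genes of mitochondrial entry, Otc (Gene ID 25611) had 184, 187 and 40.8 RPKM in the 3 controls and 2.69, 0.162, 7.63 and 5.91 RPKM in the 4 hepatomas. Control 3 stood far below controls 1 and 2, yet above every hepatoma. The difference was -4.82 ± 0.92 (log2 fold change ± SE, adjusted p = 0.00804 by limma), and the call held without each library in turn, with changes between -5.54 and -4.23. Nags (303563) had 34.7, 30.4 and 16.7 RPKM in controls and 1.05, 0.582, 6.78 and 7.20 RPKM in hepatomas, a mean of 27.3 ± 9.42 (SD, n = 3) against 3.90 ± 3.57 (SD, n = 4). Its change of -2.84 ± 0.73 was called (limma adjusted p = 0.0253), but not without control 1, 2 or 3 or hepatoma 1, where the adjusted p lay between 0.0585 and 0.107. Cps1 (497840), the most abundant of these 3, had 322, 354 and 467 RPKM in controls and 5.28, 0.152, 143 and 105 RPKM in hepatomas. Hepatomas 3 and 4 thus kept 37.6% and 27.6% of the control mean of Cps1 and hepatomas 1 and 2 kept 1.39% and 0.0398%. With that spread the change of -4.37 ± 1.89 was not called (limma adjusted p = 0.179), and it lay between -5.36 and -3.04 with each library left out, the latter without hepatoma 2. The smallest whole numbers of reads that fit all 7 libraries within 0.02 reads were 25 for Cps1 and 9 for Otc in hepatoma 2, and 48863 to 80769 for Cps1 in controls. Any multiple of these numbers fits as well.

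The 3 cytosolic enzymes did not pass the test. Ass1 (25698), which joins citrulline and aspartate, was the most abundant member in control liver, with 1648, 1795 and 1141 RPKM, and had 18.2, 3.58, 330 and 335 RPKM in hepatomas (-4.75 ± 1.75, limma adjusted p = 0.108, and -3.54 without hepatoma 2). Asl (59085), which splits argininosuccinate into arginine and fumarate, had 130, 134 and 266 RPKM in controls and 19.7, 19.7, 90.6 and 83.6 RPKM in hepatomas (-1.97 ± 0.69, limma adjusted p = 0.0784). Arg1 (29221), which cleaves arginine to urea and ornithine, had 482, 477 and 841 RPKM in controls and 86.2, 46.8, 356 and 250 RPKM in hepatomas (-2.06 ± 0.74, limma adjusted p = 0.0868). For each of the 3, hepatomas 1 and 2 were the lower pair. Asl was called without hepatoma 3 or 4 (adjusted p = 0.0366 and 0.0443), and Arg1 without hepatoma 3 (limma adjusted p = 0.0226). Slc25a15 (306574), the ornithine carrier, showed the same pair of low libraries, with 43.4, 44.1 and 66.1 RPKM in controls and 2.92, 1.41, 26.3 and 25.8 RPKM in hepatomas (-2.49 ± 1.04, limma adjusted p = 0.163).

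The 2 genes of glutamine and glutamate varied less between hepatomas. Gls2 (192268) had 99.2, 97.2 and 66.9 RPKM in controls and 13.8, 8.87, 20.7 and 19.6 RPKM in hepatomas, a mean of 87.8 ± 18.1 (SD, n = 3) against 15.7 ± 5.47 (SD, n = 4). At -2.45 ± 0.29 it had the smallest adjusted p of the members (6.78e-05, limma). Glud1 (24399) had 254, 270 and 199 RPKM in controls and 55.4, 52.0, 131 and 95.1 RPKM in hepatomas, a change of -1.61 ± 0.33 (limma adjusted p = 0.00275). Both calls held without each library in turn, with an adjusted p of at most 0.000411 for Gls2 and 0.0135 for Glud1.

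Markers of hepatocytes varied with the members, library by library. Of 16 fixed hepatocyte markers such as Alb and Apoa1, 12 were listed and 1 (Apoa2) called lower, and their median stood at 0.932% and 0.0368% of the control mean in hepatomas 1 and 2 and at 25.4% and 21.2% in hepatomas 3 and 4. The median over the 9 members stood at 5.71%, 2.76%, 37.6% and 27.6% in the same order. In bulk tissue, fewer hepatocytes and less RNA per hepatocyte cannot be told apart. Markers of other cells were high in the same libraries, where 85.5% of all genes tested were called higher. Of 10 matrix and stellate markers 8 were listed and all 8 called higher, or 5 with medians set equal. Their summed level was 2722 to 5419 RPKM against 34.5 to 121 RPKM in controls. The 4 listed of 8 endothelial markers summed to 57.0 to 88.7 against 9.27 to 16.7 RPKM. All 4 were called higher, but only 1 (Cdh5) with medians set equal. Macrophage markers (4 of 12 listed) went both ways: 3 were called higher and Clec4f, a Kupffer cell marker, lower, from a mean of 80.4 to 16.0 RPKM, and with medians set equal 1 was called higher and 1 lower. Their sum of 744 to 1353 against 132 to 160 RPKM was carried by Lyz2, with a mean of 785 RPKM in hepatomas. No listed marker was at 0 in every library. The part of these shifts in the members' values was not tested. A setting added after the data were seen scaled libraries to an equal median of the hepatocyte markers. Under it all 9 members turned higher in hepatoma, between 0.60 (Otc) and 3.81 (Glud1), and none was called (limma adjusted p from 0.505 to 1). That scaling lifted genes in general. The median log2 fold change became 7.00 over the 8233 genes tested, with 1476 called higher and 0 lower. Over the 9 members it was 2.93, so they stayed below the median gene.

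**Figure D2:**
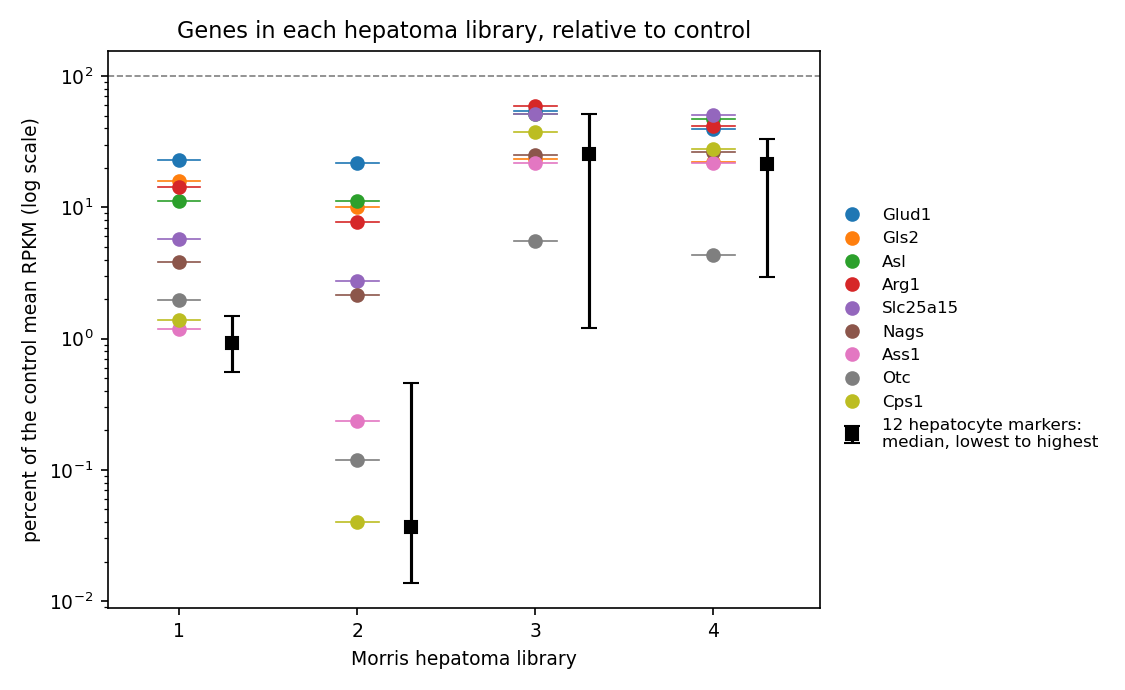
Each of the 9 members in each Morris hepatoma library as a percentage of the control mean RPKM (log axis; dashed line at 100%), with the median and range of 12 hepatocyte markers in black. In hepatomas 1 and 2 Glud1, Gls2, Asl, Arg1, Slc25a15 and Nags lie above the whole range of the hepatocyte markers, as does Otc in hepatoma 1. Arg1 and Glud1 also lie above that range in hepatomas 3 and 4, and Slc25a15 and Asl in hepatoma 4. Otc is the lowest member in hepatomas 3 and 4.

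The members did not all stand at the level of the hepatocyte markers. In hepatoma 1 Glud1, Gls2, Arg1 and Asl kept 23.0%, 15.8%, 14.4% and 11.2% of their control means, while the highest of the 12 markers kept 1.50%. In hepatoma 2 they kept 21.6%, 10.1%, 7.79% and 11.1%, and the highest marker 0.463%. Slc25a15 (5.71% and 2.76%) and Nags (3.84% and 2.14%) also stood above the highest marker in both libraries, and Otc did in hepatoma 1 (1.96%) but not in hepatoma 2 (0.118%). Ass1 and Cps1 lay within the markers' range in both libraries, at 1.19% and 1.39% in hepatoma 1 and 0.234% and 0.0398% in hepatoma 2. In hepatomas 3 and 4 the markers' ranges were wide, from 1.21% to 51.5% and from 2.96% to 33.0%. Arg1 (59.4%) and Glud1 (54.3%) stood above the highest marker in hepatoma 3. In hepatoma 4 Slc25a15 (50.4%), Asl (47.3%), Arg1 (41.7%) and Glud1 (39.5%) did so. Otc, at 5.56% and 4.31%, was the lowest member in these libraries. The proportions between members differed accordingly. The RPKM of Arg1 was 0.293, 0.266 and 0.737 times that of Ass1 in controls and 4.74, 13.1, 1.08 and 0.747 times in hepatomas, higher in every hepatoma than in every control. Cps1 stood at 1.75, 1.89 and 11.4 times Otc in controls and at 1.96, 0.937, 18.8 and 17.8 times in hepatomas, with the groups overlapping. These ratios were chosen for description and carry no test.

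Several members have a counterpart outside the cycle. Cad, whose carbamoyl phosphate synthetase domain feeds pyrimidine synthesis in the cytosol, had 2.18, 2.16 and 1.93 RPKM in controls and 38.0, 37.5, 25.6 and 30.1 RPKM in hepatomas (3.43 ± 0.18, limma adjusted p = 7.17e-07). In hepatomas 1 and 2 Cps1 stood at 0.139 and 0.00405 times Cad, against 148 to 242 times in controls, and in hepatomas 3 and 4 at 5.61 and 3.49 times. Cad was also called higher with medians set equal, with quantile normalization and with hepatocyte marker scaling. Arg2, the mitochondrial arginase, stayed under 1 RPKM in all 7 libraries, with 0.249 to 0.672 RPKM in hepatomas against 0.0178 to 0.0405 RPKM in controls, and was below the level needed for testing. Glul (glutamine synthetase), Slc25a12 and Slc25a2 (relatives of the 2 carriers) were not listed.

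**Figure D3:**
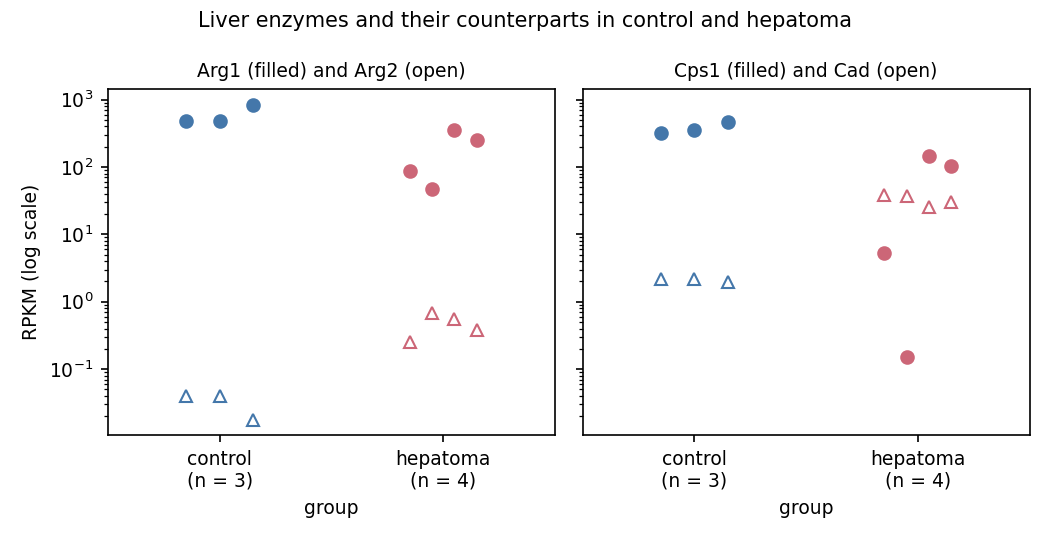
RPKM (log axis) of Arg1 and Cps1 (filled circles) and of Arg2 and Cad (open triangles) in control liver (blue, n = 3) and Morris hepatoma (red, n = 4), 1 symbol per library. Arg1 remains far above Arg2, and Cad lies above Cps1 in hepatomas 1 and 2.

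Genes around the cycle moved in both directions in hepatoma, where 85.5% of all genes tested were called higher and 8.73% lower, so that a list mostly called higher is near the background. Of 7 genes of pyrimidine synthesis 5 were listed, and all 5 were called higher, led by Ctps (4.26 ± 0.23, limma adjusted p = 7.2e-07), which makes CTP from UTP and glutamine. With medians set equal 2 of the 5 stayed called, and Ctps2 turned to -0.45. Of 14 glutamine and arginine transporters 12 were tested and 10 called higher, none lower, led by Slc1a5 (7.16 ± 0.29, limma adjusted p = 3.32e-07), Slc38a1 (5.65 ± 0.23), Slc7a5 (5.35 ± 0.27) and Slc7a1 (4.73 ± 0.23). With medians set equal, 5 of the 12 were called higher and 2 lower. Of 15 genes of ornithine and proline metabolism 14 were tested, 9 called higher and 4 lower, or 5 and 5 with medians set equal. Those higher were led by Aldh18a1 (4.61 ± 0.22), which starts proline and ornithine synthesis from glutamate, Odc1 (4.28 ± 0.20), which turns ornithine into putrescine, Sms (3.76 ± 0.25, spermine synthase) and Pycr1 (3.47 ± 0.24, the last step to proline). Prodh2, Prodh, Aldh4a1 and Oat, which break down hydroxyproline (Prodh2), proline and ornithine, were the 4 lower ones, between -3.90 and -1.38. None of these 4 stayed lower with hepatocyte marker scaling.

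Among 19 genes of transamination and ammonia release 12 were tested, 2 called higher (Asns and Dld, the latter at -1.13 with medians set equal) and 7 lower, or 1 and 10 with medians set equal. Asns, asparagine synthetase, went from 0.426 to 1.25 RPKM in controls to 68.0 to 134 RPKM in hepatomas (5.69 ± 0.26, limma adjusted p = 4.7e-07). Hal (histidine ammonia-lyase), Ftcd (histidine degradation), Gpt (alanine transaminase) and Aspg (an asparaginase) were lower, by -4.57 ± 0.81, -3.86 ± 0.95, -3.79 ± 0.59 and -3.08 ± 0.83, and above 0 with hepatocyte marker scaling. Of 20 genes that support the cycle, such as carriers of ammonia, urea and dicarboxylates, 13 were tested, 4 called higher and 4 lower, but 1 higher and 10 lower with medians set equal and 2 higher and 7 lower with quantile normalization. Slc14a1, a urea transporter, stood at no more than 0.0852 RPKM in controls and at 35.3 to 119 RPKM in hepatomas (6.06 ± 0.35, limma adjusted p = 2.2e-06), and was called higher under all 3 scalings. Mdh2, Sirt5 and Slc25a11 rose by 1.14, 1.05 and 0.93 and turned negative with medians set equal. Among them only Mdh2 was called higher with quantile normalization. Of 14 regulators of cycle genes 7 were tested, 2 called higher and 2 lower, but 0 higher and 5 lower both with medians set equal and with quantile normalization. Creb1 was higher (1.78 ± 0.18, not called with medians set equal), and Klf15 and Gcgr, the glucagon receptor, lower (-3.44 ± 0.74 and -1.84 ± 0.36, both above 0 with hepatocyte marker scaling).

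In DEN mice 6 of the 7 listed members lay lower in all 3 livers with tumours than in all 3 before tumours, and Glud1 lay higher in all 3. Otc, Asl, Slc25a13 and Slc25a15 were called lower, Glud1 was called higher, and Nags and Cps1 were not called. Ass1, Arg1 and Gls2 were not listed. Of the 3684 genes tested 49.5% were called lower and 17.9% higher (8.3% and 3% of all annotated protein-coding genes), and of all 4649 listed genes 71.4% had tumour values all below and 28.6% all above. A majority of members on the lower side is thus near what all listed genes did. The median log2 fold change was -1.15 over the 7 members and -0.56 over all genes tested. With library medians set equal the latter became -0.16, the calls over all genes 912 higher and 614 lower, and Slc25a15 lost its call.

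**Figure D4:**
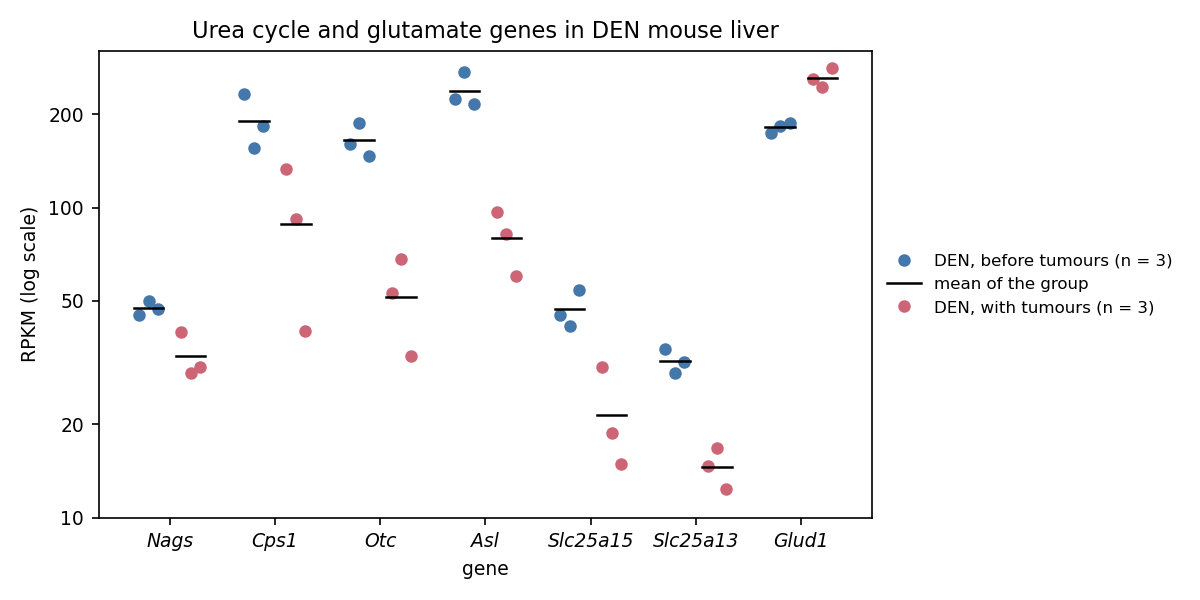
RPKM (log axis) of the 7 listed urea cycle and glutamate genes in livers of DEN mice before tumours (blue, n = 3) and with tumours (red, n = 3), 1 point per library and black bars for group means. The red points lie below the blue ones for 6 genes and above them for Glud1.

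Of mitochondrial entry, Otc (Gene ID 18416) had 160, 187 and 147 RPKM before tumours and 53.2, 68.2 and 33.2 RPKM with tumours, a change of -1.71 ± 0.25 (limma adjusted p = 0.00387). Cps1 (227231) had 233, 156 and 184 RPKM before and 133, 92.1 and 40.1 RPKM with tumours, where the libraries spread over a wide range (-1.24 ± 0.41, limma adjusted p = 0.135). Nags (217214) had 45.2, 50.1 and 46.9 RPKM before and 39.8, 29.2 and 30.6 RPKM with tumours (-0.51 ± 0.16, limma adjusted p = 0.0761), and turned to 0.12 with quantile normalization. Both were called when tumour library 1, the highest of its group for Cps1 and Nags, was left out (limma adjusted p = 0.0356 and 0.0345). Without tumour library 3, its lowest value, the change of Cps1 was -0.76 (limma adjusted p = 0.109), and with quantile normalization it was -0.50.

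Asl (109900), the 1 listed cytosolic enzyme, had 223, 274 and 216 RPKM before and 97.0, 81.9 and 60.1 RPKM with tumours, a mean of 238 ± 31.7 against 79.7 ± 18.6 (SD, n = 3 each). Its change of -1.58 ± 0.20 had the smallest adjusted p of the members here (0.00195, limma). Both carriers were called lower. Slc25a13 (50799) had 35.0, 29.3 and 31.7 RPKM before and 14.6, 16.8 and 12.3 RPKM with tumours (-1.09 ± 0.15, limma adjusted p = 0.00266). Slc25a15 (18408) had 45.2, 41.5 and 54.3 RPKM before and 30.6, 18.8 and 15.0 RPKM with tumours (-1.15 ± 0.25, limma adjusted p = 0.0201), and its call was lost without any 1 of the livers before tumours or without tumour library 3 (adjusted p from 0.05 to 0.0853). The calls of Otc, Asl and Slc25a13 held without each library in turn, but with quantile normalization only that of Asl held.

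Glud1 (14661) went the other way, from 174, 184 and 187 RPKM to 259, 245 and 282 RPKM, a mean of 182 ± 7.09 against 262 ± 18.7 (SD, n = 3 each). The increase of 0.53 ± 0.14 was called (limma adjusted p = 0.0448), but without any 1 of the 6 libraries it was not (adjusted p from 0.0562 to 0.166). It turned to -0.21 with hepatocyte marker scaling, where the median of all genes tested was -1.30. Hepatocyte markers went both ways in these livers. Their 7 listed of 16 summed to 156243 to 176778 RPKM with tumours against 69941 to 83184 RPKM before, with Ahsg, Alb and Apoa1 called higher and Apoa2 and Serpina1c lower. Matrix markers (2 of 10 listed) summed to 59.5 to 62.7 against 20.8 to 33.6 RPKM, and macrophage markers (5 of 12 listed) to 105 to 150 against 79.2 to 97.9 RPKM, of which Cd14, Lyz2 and Cd68 were called higher and Clec4f lower, from a mean of 33.9 to 9.29 RPKM. Their part in the members' values was not tested.

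Glul, the enzyme that takes up in perivenous hepatocytes the ammonia left by the cycle, had 250, 268 and 235 RPKM before tumours and 10.0, 46.5 and 37.9 RPKM with tumours (-3.20 ± 0.52, limma adjusted p = 0.00945). The RPKM of Glud1 was therefore 0.686 to 0.797 times that of Glul before tumours and 5.27 to 25.8 times with tumours. Of 10 perivenous markers, which include Glul, all were listed and the 9 tested were called lower, against 49.5% of all genes tested. Among the 9 were Cyp2e1 (-4.05 ± 0.74) and Oat (-3.13 ± 0.37). Among periportal markers outside the members, Cyp2f2 was lower (-2.81 ± 0.32) and Cdh1 higher (1.41 ± 0.20).

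Other genes around the cycle were called in both directions in DEN livers with tumours, where 49.5% of all genes tested were called lower. Of 11 tested genes that support the cycle 9 were called lower and none higher, led by Rhbg, an ammonia channel, with 9.54 ± 1.88 RPKM before and 0.720 ± 0.170 RPKM with tumours (-2.60 ± 0.16, limma adjusted p = 0.000121), and by Sirt3 (-1.48 ± 0.18), Mdh1 (-1.41 ± 0.15) and Aqp9 (-1.19 ± 0.19). With medians set equal 5 of the 11 stayed called lower. Of 8 tested genes of ornithine and proline metabolism 5 were lower and 2 higher, or 3 and 2 with medians set equal. Prodh, proline dehydrogenase, fell from 49.3 ± 6.82 to 4.24 ± 1.92 RPKM (-3.32 ± 0.26, limma adjusted p = 0.00038), and Aldh18a1 rose from 0.722 ± 0.113 to 5.59 ± 1.47 RPKM (1.91 ± 0.18, limma adjusted p = 0.00052), both also under the 3 scalings. Asns rose from 3.91 ± 0.922 to 32.8 ± 13.4 RPKM (SD, n = 3 each), a change of 2.70 ± 0.33 (limma adjusted p = 0.00266), as the 1 higher of 6 tested genes of transamination and ammonia release, and 4 were lower (Aspa, Aspg, Uroc1 and Ftcd, from -1.39 to -0.81), of which 1 kept its call with medians set equal. Of the transporters Slc3a2 (1.74 ± 0.15) and Slc7a7 (1.68 ± 0.19) were higher and Slc1a2 (-1.88 ± 0.22), the perivenous glutamate carrier, lower. Of 7 tested regulators 5 were called lower, led by Creb3l3, Gcgr, Klf15 and Cebpa (between -1.01 and -0.83), with 1 left when medians were set equal. Of the 2 tested pyrimidine genes Ctps2 was called higher (0.96 ± 0.15).

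In regenerating liver Nags was the 1 member listed. It had 40.0, 43.1, 47.2 and 36.6 RPKM, a mean of 41.7 ± 4.51 (SD, n = 4), against 34.7, 30.4 and 16.7 RPKM in the shared controls. All 4 values lay above all 3 controls, as did those of 87.4% of the 2093 listed genes, while 5.4% lay all below. The change of 0.65 ± 0.22 was not called (limma adjusted p = 0.283), where 21.2% of the 1703 genes tested were called higher and 0.763% lower (1.56% and 0.0561% of all annotated protein-coding genes). Control 3 was the lowest for Nags, and without it the change was 0.34. With medians set equal it was 0.03, and all genes moved from a median of 0.53 to -0.09. Of the genes around the cycle, 3 of 5 tested genes of ornithine and proline metabolism were called higher, among them Srm (0.76 ± 0.13, spermidine synthase) and Pycrl (0.76 ± 0.15), and none of the 3 was called with medians set equal.

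**Figure D5:**
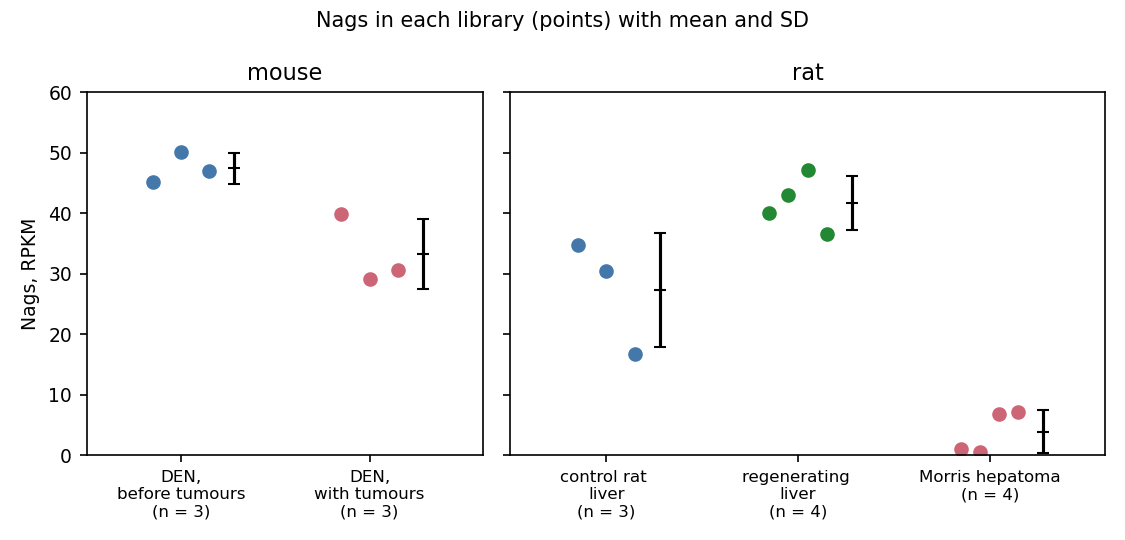
RPKM of Nags in each library (points) with the mean and SD of each group, for mouse DEN livers (left) and rat livers and hepatomas (right), on a linear axis from 0. The regenerating livers lie between 36.6 and 47.2 RPKM and the 4 hepatomas between 0.582 and 7.20 RPKM.

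Set directly against each other in 1 fit over the 3 rat groups, Nags was lower in Morris hepatoma than in regenerating liver by -3.49 ± 0.55 (limma adjusted p = 0.00278). Here 4.71% of the 1676 genes tested were called lower and 81.4% higher. Nags held this call under all 19 alternatives run, including each library left out in turn, with adjusted p from 8.75e-06 to 0.0347. Leaving out a control library could not move the change, which stayed at -3.49. Hepatocyte marker scaling was not run here, because only 2 of its markers were listed in both rat tables. Under that scaling Nags in hepatoma against control turned to 2.59, where the median of all genes tested was 7.00. On the deposited RPKM scale the order of Nags in the rat was regenerating liver, control and hepatoma. Regenerating and control liver did not differ beyond the test's threshold. Cad, called in hepatoma, had 2.48 to 3.91 RPKM in regenerating liver against 1.93 to 2.18 RPKM in controls (0.44 ± 0.13, limma adjusted p = 0.171), and hepatoma exceeded regenerating liver by 2.99 ± 0.15 (limma adjusted p = 1.9e-09).

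The genes whose log2(RPKM + 1) followed a member most closely were named for 1 member per table, as a description over libraries that share their groups. Ass1 over the 7 rat libraries was closest to Fetub (Pearson r = 0.9996), Apoc4 (0.999), F12 (0.9988), Acox2 and Itih1 (both 0.9987), of which Fetub, Apoc4, F12 and Itih1 encode plasma proteins made by liver. Glud1 over the 6 mouse libraries was closest to Trf (transferrin, 0.9976), D1Ertd622e (0.9975), Homer3 (0.9974), S100a6 (0.9969) and Cdc25c (0.9961). Nags over control and regenerating libraries was closest to Adam15 (0.9947), Slc25a10 (0.9923, a mitochondrial dicarboxylate carrier), Mettl13 (0.9909), Syngr2 (0.9877) and Anxa4 (0.9871).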

How the data were processed

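RNA of 17 libraries was measured by sequencing: DEN mouse liver before (n = 3) and with tumours (n = 3), control rat liver (n = 3), Morris hepatoma (n = 4) and regenerating liver (n = 4). Samples were grouped by the labels. For the aligner, the genome build and read counting, settings are not given in the sources used here. For each comparison the authors deposited 1 table with RPKM values per gene and library, a unit that was read from the values because the headers name none, with 0.001 in place of 0. Per the file headers the tables also hold a log2 ratio of group means and a p-value, headed as Holm-corrected, which is under 0.05 in every listed gene. The control values were the same in both rat tables. Total reads are unknown, so no counting intervals are given. Relative depth, read from the steps of low values, spanned 0.943 to 1.22 in the mouse and 1 to 1.14 in the hepatoma table, against the first library of each.

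The test was limma 3.58.1 (R 4.3.3, two-sided, with its trend and robust options) on log2(RPKM + 1). It ran over every gene of a table that reached 1 RPKM in a number of libraries equal to the size of the smaller group. Fold changes are on that scale, which understates changes of low genes, and errors beside them are standard errors. A gene was called when its p, adjusted by Benjamini-Hochberg, was under 0.05. Since genes were preselected, the number of tests was set to all protein-coding genes, which are 21951 in GENCODE M21 (mouse) and 23154 in RefSeq GRCr8 (rat). In simulated data that went through the same preselection, false calls took a larger share than that threshold, and adjusted p-values may thus be too small. The simulation held fewer changed genes than were called in each table and took its spread from listed genes. The share of false calls in the real data may therefore differ. Hepatoma and regenerating liver were compared over 1752 genes listed in both rat tables.

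All members are named. Of the other lists at most the 4 called genes with the largest change are named per comparison, and the counterparts outside the cycle. Some of these genes are not reported here. The members and lists were chosen with earlier results of these data known, so no count over a list carries a test. Alternatives were pseudocounts, filters, scalings, adjustment, a replicate block and leaving out libraries. Medians and quantiles were taken over the tested genes, which were preselected. Those scalings thus take out a shift shared by the tested genes by construction. Python 3.11.15 with numpy 2.4.6, pandas 2.3.3 and matplotlib 3.10.9 did the rest, and promoters came from RefSeq GRCr8.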

Additional observations from a re-analysis of the deposited data

Results flagged for a closer look

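Nags was flagged because its effects differed between the 2 rat conditions that share controls: hepatoma minus regenerating liver was -3.49 on the log2(RPKM + 1) scale (limma adjusted p = 0.00278), with all 4 hepatomas below all 4 regenerating livers. Glud1 was flagged because it moved in opposite directions in the tumour models: it was higher in 3 of 3 DEN tumour livers (0.53) and lower in 4 of 4 Morris hepatomas (-1.61), in different species and against different references, and the difference between the models was not tested. In 10 groups of 4 libraries checked for a library far from the rest, 0 were found. Groups of 3 libraries, among them the rat controls, were not checked. The check looks for a single library and cannot flag 2 low libraries beside 2 high ones, as in the hepatomas.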

How the results depend on the processing

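Of 268 values of single members under alternatives, 216 kept their direction and side of the threshold, 19 gained a call, 22 lost one and 11 reversed. In DEN liver the 4 members called lower became 1 with quantile normalization and 3 to 6 without single libraries. The 1 called higher became 0 with a filter at 5 RPKM, with a replicate block, with hepatocyte marker scaling (added after the data were seen) and in every fit without 1 library (0 to 0). Nags reversed to 0.12 with quantile normalization and Glud1 to -0.21 with hepatocyte marker scaling. In Morris hepatoma the 4 called lower became 7 with medians set equal, 7 when adjusted over the tested genes alone, 1 with the 3 rat groups in 1 fit, where Nags is the only member tested, 0 with hepatocyte marker scaling and 3 to 6 without single libraries. With hepatocyte marker scaling all 9 reversed: Nags 2.59, Cps1 1.05, Otc 0.60, Ass1 0.68, Asl 3.45, Arg1 3.36, Slc25a15 2.93, Gls2 2.97 and Glud1 3.81. The median of all genes tested stood at 7.00 under that scaling. The causes of these changes were not tested. In regenerating liver the 0 called became 1 (Nags, limma adjusted p = 0.0208) when adjusted over the tested genes alone.

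Over all genes, calls ranged over the alternatives from 168 to 943 higher and 589 to 2765 lower in DEN liver, 1476 to 7637 and 0 to 2389 in Morris hepatoma, 19 to 1561 and 1 to 65 in regenerating liver, and 458 to 1445 and 63 to 529 in the direct comparison. The labels do not say whether replicate numbers pair the libraries. Deviations of equally numbered libraries correlated at -0.0853, -0.159 and -0.0221 (DEN), -0.152, -0.22 and -0.198 (Morris) and 0.151, -0.215 and -0.317 (regenerating). Among the DEN tumour, hepatoma and regenerating libraries, only regenerating library 1 correlated best with the reference library of its own number. Deviations from a group mean cancel out within such small groups, so these correlations cannot settle whether libraries are paired. With the replicate block the members called were 5 lower and 0 higher in DEN liver (Cps1 at adjusted p = 0.0483 gained, Glud1 at 0.144 lost), 4 lower in Morris hepatoma (Asl at 0.00378 and Arg1 at 0.017 gained, Nags at 0.0884 and Otc at 0.0735 lost) and 0 in regenerating liver (limma), and over all genes 536 higher and 1436 lower, 6725 and 242, and 23 and 2. No control is numbered 4, so against control the block took up hepatoma 4 and regenerating liver 4. The changes thus equalled those without that library, at -3.21 and 0.71 for Nags. The block left Nags called lower in the direct comparison.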

Other observations

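Control library 3, which differed from controls 1 and 2 in opposite directions among the members, was also the control nearest to the hepatomas in most proportions between members. Of the 36 ratios between pairs of the 9 members, 22, 23, 27 and 29 in hepatomas 1 to 4 lay nearer to control 3 than to control 1 or 2. The remaining 14, 13, 9 and 7 lay nearest to control 1 or 2. Those 2 controls lay close together for most members, so the choice was largely between 2 positions, and no expected share was worked out. These ratios were looked at after the values were seen and share their genes, and no test was made.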
